A study of Mus musculus with 4 samples.

Results

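Angiogenic growth factors and their receptors were followed through Achilles tendon injury in neonatal and adult mice. The 10 genes described are 6 ligands (Vegfa, Vegfb, Vegfc, Angpt1, Angpt2 and Hgf) and 4 receptors (Kdr, Flt1, Flt4 and Nrp1). They are selected by symbol, a rule that uses no measured value, although the symbols were chosen with earlier results of these data known. Each was found once among the 23351 genes of both deposited expression tables. The 4 libraries each came from pooled Achilles tendon RNA of male mice homozygous for Scx-EGFP, a green fluorescent reporter of the tendon transcription factor Scx, on a C57BL/6 background. The 6-month tenotomy pool held RNA of 9 adult mice and the 6-month sham pool RNA of 5. The 7-day tenotomy pool and the 7-day sham pool each held RNA of 11 neonatal mice. Tenotomy, which transects the tendon, was done on the right hindlimb and the sham operation on the left. All RNA was taken 5 days after the operation, and after tenotomy the distal stump was dissected free of the connective tissue around it. Operation, hindlimb side and the stump dissection thus go together, so their parts in any difference cannot be told apart. The labels call the tendons of all 4 pools uninjured, also those of the tenotomy pools, and here the pools go by the operation named in those labels. All mice carried the reporter, and no group without it was analysed here.

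Each group is 1 pool, so animals could not be compared with each other and no difference below has a replicate check or a test. Levels are FPKM, fragments counted per kilobase of transcript and adjusted for library size. The steps between low FPKM values gave depths of about 2430000, 1795000, 3280000 and 2700000 fragments in the 6-month tenotomy, 6-month sham, 7-day tenotomy and 7-day sham libraries. The fragments behind each value were worked out from these depths and the transcript length, and each ratio has a 95% counting interval. Reads were made by PCR without molecular identifiers, so the intervals cover counting error only and compare libraries, not conditions. Genes that reached 5 FPKM in one or both libraries of an age were compared, and those with log2((tenotomy FPKM + 1)/(sham FPKM + 1)) of at least 1 or at most -1 are called higher or lower. In bulk tissue, fewer cells of a type and less RNA per cell cannot be told apart.

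Vascular endothelial growth factors (VEGFs) drive the growth of vessels. VEGF-A acts mainly through Kdr (VEGFR2) on blood endothelium, Flt1 (VEGFR1) binds VEGF-A and VEGF-B and can act as a decoy, and VEGF-C signals to lymphatic endothelium through Flt4 (VEGFR3), while neuropilin-1 (Nrp1) is a co-receptor. Angpt1 activates the endothelial receptor Tek (Tie2) and steadies vessels, Angpt2 is largely its antagonist on Tek and loosens vessels that remodel, and hepatocyte growth factor (Hgf), made by mesenchymal cells, acts through the receptor Met. Healthy adult tendon is poor in vessels, and vessels grow into it after injury.

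Promoter sequences were set beside the measurements for the ligand pair Vegfa and Vegfb, whose tenotomy values lay below sham at both ages. They were also set beside those of the receptor pair Kdr and Flt1. At 6 months the tenotomy value lay above sham for Kdr and below it for Flt1, where the difference was within counting error. Each sequence is the 250 bases before the gene start in RefSeq on GRCm38.p6, read 5′ to 3′ on the gene's strand. Vegfa lies on the minus strand at chr17:46032378-46032627, Vegfb on the minus strand at chr19:6987652-6987901, Kdr on the minus strand at chr5:75978456-75978705 and Flt1 on the minus strand at chr5:147726012-147726261. Capitals mark 3 short motifs on either strand, with no overlapping matches: the GC box GGGCGG, the ETS core GGAAG and the HIF core ACGTG or GCGTG.
Vegfa: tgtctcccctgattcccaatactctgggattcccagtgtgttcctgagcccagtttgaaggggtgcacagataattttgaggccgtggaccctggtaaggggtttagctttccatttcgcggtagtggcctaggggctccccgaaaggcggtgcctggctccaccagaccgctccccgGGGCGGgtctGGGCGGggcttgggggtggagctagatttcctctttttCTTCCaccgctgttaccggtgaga
Vegfb: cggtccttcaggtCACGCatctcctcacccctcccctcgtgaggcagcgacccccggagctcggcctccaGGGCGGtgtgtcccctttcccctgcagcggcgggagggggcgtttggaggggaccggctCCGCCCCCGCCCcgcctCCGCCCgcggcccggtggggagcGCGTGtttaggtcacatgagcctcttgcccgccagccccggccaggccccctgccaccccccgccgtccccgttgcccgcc
Kdr: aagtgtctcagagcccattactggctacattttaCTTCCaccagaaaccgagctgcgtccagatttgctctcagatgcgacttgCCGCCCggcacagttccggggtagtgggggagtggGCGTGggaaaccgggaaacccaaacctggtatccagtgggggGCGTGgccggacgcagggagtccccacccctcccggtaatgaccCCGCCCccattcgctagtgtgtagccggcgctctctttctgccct
Flt1: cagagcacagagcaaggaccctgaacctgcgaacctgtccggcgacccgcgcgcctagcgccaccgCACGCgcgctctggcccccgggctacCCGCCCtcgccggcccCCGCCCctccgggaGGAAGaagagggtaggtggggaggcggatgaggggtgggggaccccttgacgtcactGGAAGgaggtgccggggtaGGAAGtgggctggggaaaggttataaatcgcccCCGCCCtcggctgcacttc

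The base composition of these windows was 59.2% G or C for Vegfa, 76.4% for Vegfb, 61.6% for Kdr and 70.4% for Flt1, against a median of 52.4% over all promoters. The GC box, which Sp1 family factors bind, was matched 2 times at Vegfa, 4 times at Vegfb, 2 times at Kdr and 3 times at Flt1, and 32.7% of 32851 promoter windows of this length held it. The ETS core, bound by factors that include those of endothelial cells, was matched 3 times at Flt1, once each at Vegfa and Kdr and not at Vegfb, while 64.1% of all windows held it. The HIF core, the heart of the hypoxia response element, was matched 2 times each at Vegfb and Kdr, once at Flt1 and not in this Vegfa window, while 38.6% of all windows held it. A match is a description of letters and not a binding site. Vegfa has a second RefSeq start inside the gene, whose window at chr17:46025164-46025413 held 2 HIF core matches. That window lies within the gene body and can hold exon letters, so these matches are not read as a promoter element. Of the 10 genes, 8 were matched in the RefSeq table, and Angpt1 and Angpt2 were not.

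On mm10, the build that the submitters' processing notes name, the tables place Vegfa on chromosome 17 from 46016993 to 46032377, Vegfb on chromosome 19 from 6982472 to 6987651 and Vegfc on chromosome 8 from 54077532 to 54186454. Angpt1 lies on chromosome 15 from 42424725 to 42676795 and Hgf on chromosome 5 from 16553550 to 16619439. Among the receptors, Kdr lies on chromosome 5 from 75933270 to 75978428, Flt1 on chromosome 5 from 147562196 to 147725988, Flt4 on chromosome 11 from 49609679 to 49652739 and Nrp1 on chromosome 8 from 128359073 to 128505475. Angpt2 is listed with the locus of Mcph1, chromosome 8 from 18595173 to 18803188, because it lies antisense within that gene. The annotated exons of Angpt2 and Mcph1 share 0 bp. Mcph1 had 3.07 FPKM in the 6-month tenotomy library, 1.89 FPKM in the 6-month sham library, 3.93 FPKM in the 7-day tenotomy library and 1.95 FPKM in the 7-day sham library. The labels and file headers do not say whether counting used strand, so reads from the introns of one gene could have been given to the other. Vegfa, Vegfb and Hgf have several coding transcripts, and their fragment counts, taken from the shortest, are approximate. Flt1 makes a full-length receptor and a soluble decoy from one gene, and the tables give 1 value for both.

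Of the 10 genes, 6 reached 5 FPKM in either 6-month library and 10 reached it in either 7-day library. At 6 months 0 of the 6 were higher after tenotomy, where 9.62% of 9001 genes were, and 2 were lower (Vegfb and Angpt1), where 11.9% of genes were. The median log2 ratio of the 6 was -0.59, against -0.03 over all genes. At 7 days 1 of the 10 was higher (Hgf), where 5.55% of 9424 genes were, and 1 was lower (Vegfb), where 10.3% of genes were. The median was 0.34, against 0.01 over all genes, but Hgf, Flt4 and Angpt2 reached the 7-day floor through the tenotomy library alone, and the other 7 had a median of 0.04. With FPKM rescaled to a common sum without small RNAs, mitochondrial and muscle genes, 13.4% of genes were higher and 8.41% lower at 6 months, and with a plain common sum 8.21% were higher and 8.60% lower at 7 days. These scalings moved the median of all genes to 0.17 and 0.18, and the same members were called under both. The shares of members called are small counts set against these backgrounds.

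**Figure D1:**
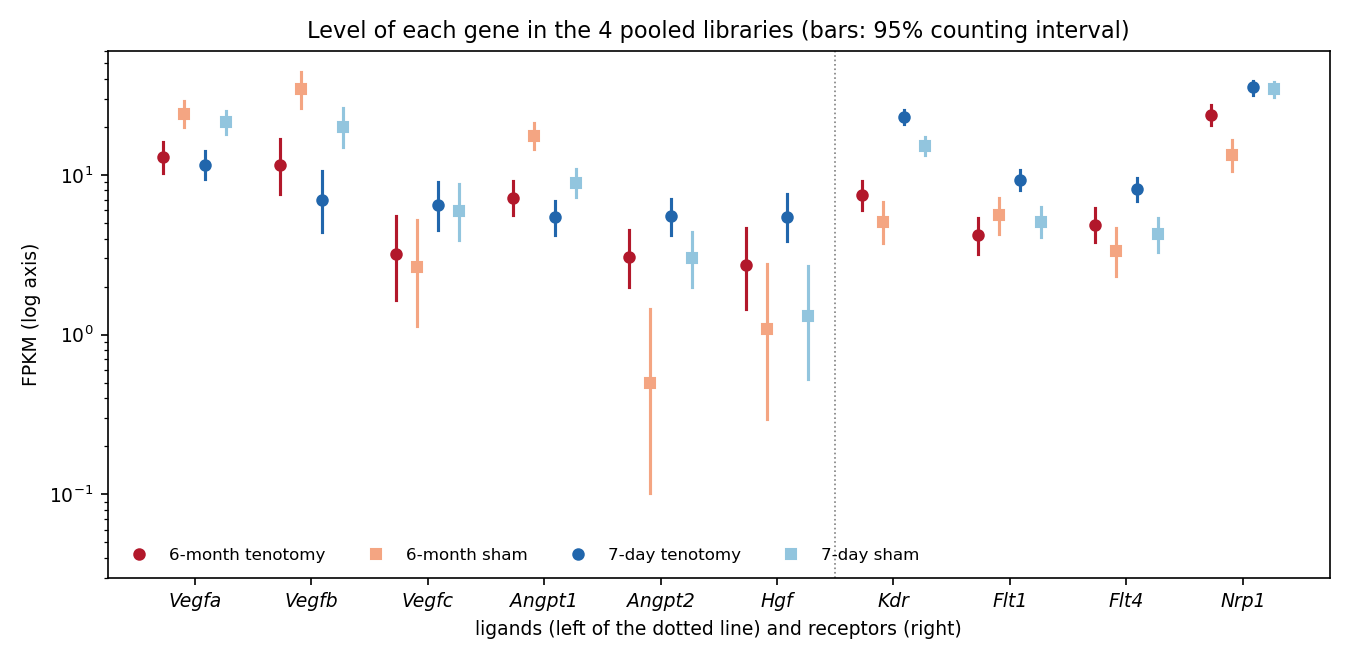
Level of each gene in FPKM, on a log axis, in the 6-month tenotomy, 6-month sham, 7-day tenotomy and 7-day sham libraries. Each point is 1 pooled library with its 95% counting interval. Vegfa, Vegfb and Angpt1 lie lower after tenotomy than after sham at both ages. Vegfc, Angpt2, Hgf, Kdr, Flt4 and Nrp1 stand higher at 7 days than at 6 months in both operations. For Hgf and Flt4 after sham the log2 ratios of 6 months to 7 days are only -0.15 and -0.27. The median over all genes is -0.25. The levels of the ages may have been scaled separately.

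Vegfb was the one member past 2-fold at both ages, and it was lower after tenotomy each time. Vegfb, which binds Flt1 and Nrp1 and is linked to fatty acid use in muscle and heart, had 11.6 FPKM after tenotomy and 34.5 FPKM after sham at 6 months. At 7 days it had 6.99 FPKM after tenotomy and 20.1 FPKM after sham. Both tenotomy libraries were thus below both sham libraries, and Vegfb fell 2.97-fold at 6 months and 2.88-fold at 7 days. The tenotomy over sham ratio was 0.337 (0.206 to 0.542) at 6 months and 0.347 (0.201 to 0.584) at 7 days. These values rest on 27 and 59 fragments at 6 months, tenotomy and sham, and on 22 and 52 fragments at 7 days.

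Vegfa, the main growth signal for blood vessels, had 13.0 FPKM after tenotomy and 24.2 FPKM after sham at 6 months. It had 11.6 FPKM after tenotomy and 21.4 FPKM after sham at 7 days. Again both tenotomy values lay under both sham values, by a margin short of 2-fold. The ratio was 0.536 (0.396 to 0.717) at 6 months and 0.541 (0.415 to 0.703) at 7 days, so at either age the interval left out 1 and the log2 ratios of -0.85 and -0.83 did not pass the call.

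Skeletal muscle transcripts were also lower after tenotomy at both ages. All 24 skeletal muscle markers were 2-fold lower after tenotomy at either age, of which 3 at 6 months and 19 at 7 days reached the floor through the sham library alone. Over all genes, 11.9% were lower at 6 months and 10.3% at 7 days. The summed level of the 24 muscle markers was 16166 FPKM in the 6-month tenotomy library and 53270 FPKM in the 6-month sham library. It was 71.7 FPKM in the 7-day tenotomy library and 26006 FPKM in the 7-day sham library. Of the 24, 1 marker was at 0 in each tenotomy library (Myl2 at 6 months and Myl3 at 7 days). Vegfa equalled 0.0804% of the muscle sum after tenotomy and 0.0455% after sham at 6 months, but 16.2% after tenotomy and 0.0825% after sham at 7 days. Vegfb equalled 0.0718% and 0.0647% of it at 6 months, tenotomy and sham, and 9.76% and 0.0774% at 7 days. In the 7-day tenotomy library, where the muscle sum was 71.7 FPKM, Vegfa had 98 fragments and Vegfb 22 fragments. The part of muscle RNA in the lower ligand values was not tested.

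Vegfc was close to equal after both operations. Vegfc, the lymphatic growth factor, had 3.18 FPKM after tenotomy and 2.64 FPKM after sham at 6 months, which left it under the 5 FPKM floor. At 7 days it had 6.51 FPKM after tenotomy and 5.97 FPKM after sham. The ratio was 1.20 (0.416 to 3.12) at 6 months and 1.09 (0.627 to 1.87) at 7 days, so ratios on both sides of 1 lay within counting error. Relative to Vegfa in the same library, Vegfc stood at 0.245 after tenotomy and 0.109 after sham at 6 months. At 7 days the Vegfc to Vegfa ratio was 0.561 after tenotomy and 0.278 after sham, with Vegfa the lower of its own 2 values after tenotomy at either age.

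The angiopoietins went opposite ways, and their ratio within a library is free of library scaling. Angpt1, the Tek agonist, fell after tenotomy at 6 months, with 7.22 FPKM in the tenotomy library and 17.6 FPKM in the sham library, a ratio of 0.410 (0.299 to 0.554) and a log2 ratio of -1.18. At 7 days Angpt1 had 5.43 FPKM after tenotomy and 8.97 FPKM after sham, a ratio of 0.605 (0.436 to 0.833) short of the call at a log2 ratio of -0.63. The 6-month sham library held the highest Angpt1 level of the 4, and the tenotomy libraries the lowest.

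Angpt2, the context-dependent Tek antagonist, had 3.06 FPKM after tenotomy and 0.496 FPKM after sham at 6 months. Only 3 fragments stood behind the sham value and 25 behind the tenotomy value, so the ratio of 6.18 has a wide interval (1.88 to 31.9) and the gene stayed under the floor. At 7 days Angpt2 had 5.53 FPKM after tenotomy and 3.0 FPKM after sham, a ratio of 1.84 (1.16 to 3.04) and a log2 ratio of 0.71. The tenotomy value was above the sham value of its age both times, and the intervals left out 1. At 7 days Angpt2 reached the floor through the tenotomy library alone, so a tenotomy value above sham was built into its selection there.

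The Angpt2 to Angpt1 ratio was 0.424 (0.257 to 0.680) in the 6-month tenotomy library and 0.0281 (0.00572 to 0.0842) in the 6-month sham library. It was 1.02 (0.711 to 1.46) in the 7-day tenotomy library and 0.335 (0.208 to 0.513) in the 7-day sham library. The ratio was higher after tenotomy at either age and the counting intervals of tenotomy and sham did not overlap. Angpt2 was thus within counting error of Angpt1 in the neonatal stump, and stayed below Angpt1 in the other 3 libraries. Pericyte and smooth muscle markers, whose cells are known sources of Angpt1, were mixed: 2 of 8 at the floor were higher (Mcam and Acta2) and 2 lower (Abcc9 and Des) at 6 months, and 2 of 10 were higher (Pdgfrb and Acta2) and 1 lower (Des) at 7 days. Over all genes, 9.62% were higher and 11.9% lower at 6 months, and 5.55% and 10.3% at 7 days. The summed level of these markers was 660 FPKM after tenotomy and 1864 FPKM after sham at 6 months. At 7 days it was 436 FPKM after tenotomy and 809 FPKM after sham. Des, which muscle fibres also express, had 482 FPKM after tenotomy and 1733 FPKM after sham at 6 months, and 13.1 FPKM after tenotomy and 550.4 FPKM after sham at 7 days. Without Des the direction of the sum turned round. The other 9 summed to 178 FPKM after tenotomy and 132 FPKM after sham at 6 months. At 7 days they summed to 423 FPKM after tenotomy and 259 FPKM after sham. Acta2 made up the largest part of the 6-month difference, with 49.9 FPKM after tenotomy and 10.5 FPKM after sham. Abcc9 went the other way, with 11.9 FPKM after tenotomy and 27.8 FPKM after sham at 6 months. The part of these cells in the Angpt1 values was not tested.

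Hgf was the one member called higher after tenotomy, at 7 days. Hgf, a growth and motility factor that acts on endothelium and on muscle stem cells, had 5.48 FPKM after tenotomy and 1.31 FPKM after sham at 7 days. The ratio was 4.18 (1.86 to 11.3), on 36 fragments after tenotomy and 7 after sham, with a log2 ratio of 1.49. The gene reached the floor through the tenotomy library alone, so it had to differ to be compared. At 6 months Hgf had 2.74 FPKM after tenotomy and 1.09 FPKM after sham, and the ratio of 2.52 (0.742 to 10.1) lay within counting error of 1.

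Macrophage markers were higher in the same libraries. At 6 months 13 of 14 macrophage markers were 2-fold higher after tenotomy, where 9.62% of all genes were. At 7 days 9 of the 14 were, where 5.55% of all genes were, and none was lower at either age. Of those higher, 1 at 6 months (Cd68) and 3 at 7 days (Cd14, Trem2 and Itgam) reached the floor through the tenotomy library alone. The 14 summed to 2062 FPKM after tenotomy and 556 FPKM after sham at 6 months, and 1170 FPKM after tenotomy and 476 FPKM after sham at 7 days, with none at 0. Hgf equalled 0.133% of the macrophage sum after tenotomy and 0.195% after sham at 6 months, and 0.469% after tenotomy and 0.276% after sham at 7 days. The part of macrophage RNA in the Hgf value was not tested.

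**Figure D2:**
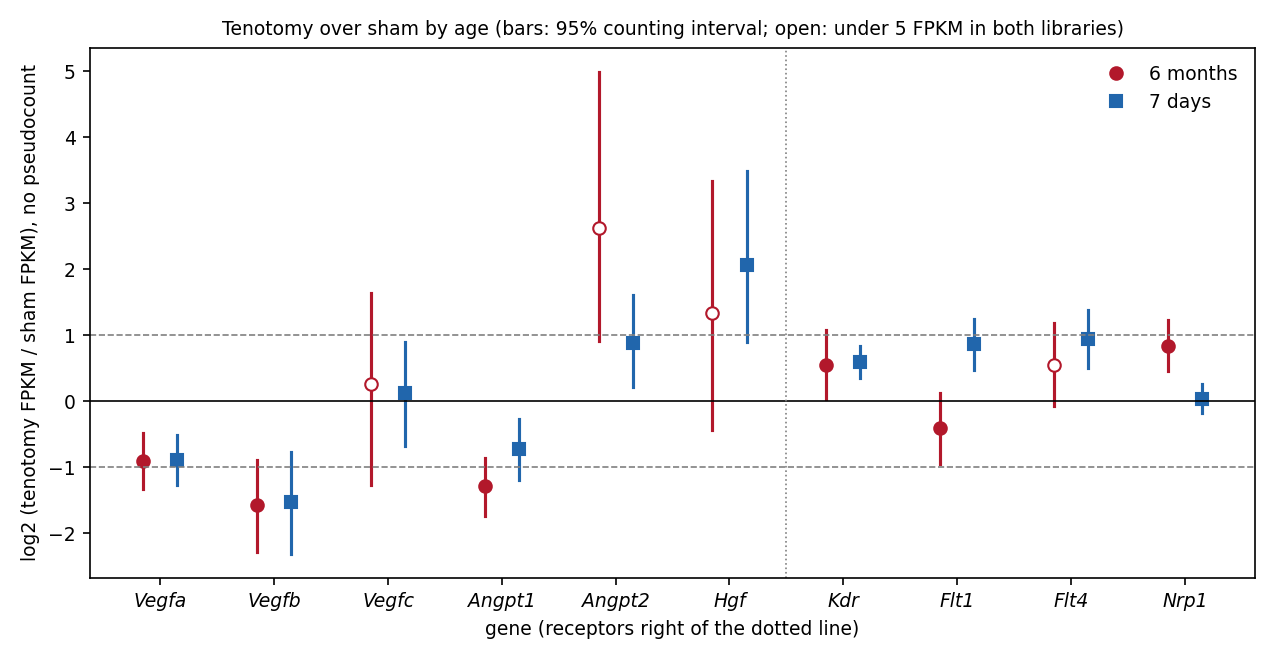
Log2 ratio of tenotomy FPKM to sham FPKM, without a pseudocount, for the 10 genes at 6 months (circles) and 7 days (squares). Bars are 95% counting intervals, dashed lines mark 2-fold and open points are genes under 5 FPKM in both libraries of an age. Vegfa and Vegfb nearly coincide at the 2 ages, while Flt1 lies below 0 at 6 months and above 0 at 7 days.

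No receptor passed 2-fold at either age, on too few genes to set this apart from all genes. At 6 months 9.62% of all genes were higher and 11.9% lower, and at 7 days 5.55% and 10.3% were. Of the 4 receptors, 3 reached the floor at 6 months, with a median log2 ratio of 0.47. All 4 reached it at 7 days, with a median of 0.66. Without Flt1 at 6 months and Flt4 at 7 days, which reached it through 1 library alone, the medians were 0.63 and 0.56. The medians over all genes were -0.03 and 0.01. Kdr, the main signalling receptor for VEGF-A, had 7.45 FPKM after tenotomy and 5.08 FPKM after sham at 6 months, a ratio of 1.47 (1.02 to 2.11). At 7 days Kdr had 23.0 FPKM after tenotomy and 15.2 FPKM after sham, a ratio of 1.51 (1.28 to 1.79) on 396 and 216 fragments. The tenotomy library held more Kdr than the sham library of its age both times, and both 7-day libraries held more than both 6-month libraries.

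Flt1 was the one member whose tenotomy response was called different between the ages. Flt1 had 4.20 FPKM after tenotomy and 5.58 FPKM after sham at 6 months, a ratio of 0.753 (0.519 to 1.09). At 7 days it had 9.29 FPKM after tenotomy and 5.11 FPKM after sham, a ratio of 1.82 (1.39 to 2.38). The 7-day tenotomy library stood above the other 3, which lay between 4.20 and 5.58 FPKM. At 6 months Flt1 reached the floor through the sham library alone.

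Flt4, the VEGF-C receptor of lymphatic and some growing blood vessels, had 4.89 FPKM after tenotomy and 3.35 FPKM after sham at 6 months, a ratio of 1.46 (0.950 to 2.27) under the floor. At 7 days it had 8.17 FPKM after tenotomy and 4.25 FPKM after sham, a ratio of 1.92 (1.42 to 2.60) with a log2 ratio of 0.81. The 7-day floor was reached through the tenotomy library alone. Nrp1, a co-receptor of VEGF and of class 3 semaphorins that fibroblasts also express, had 23.8 FPKM after tenotomy and 13.3 FPKM after sham at 6 months, a ratio of 1.79 (1.38 to 2.36). At 7 days Nrp1 had 35.3 FPKM after tenotomy and 34.4 FPKM after sham, a ratio of 1.03 (0.883 to 1.19). Nrp1 was thus nearly equal after both operations in neonates, with an interval narrow enough to leave out 1.5-fold, and lowest in the adult sham library.

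Endothelial markers were examined beside the receptors. At 6 months 3 of 14 were 2-fold higher after tenotomy (Pecam1, Cdh5 and, at the floor through tenotomy alone, Ecscr). The median log2 ratio of the list was 0.55, and 0.49 over the markers at the floor in both libraries. At 7 days 4 of 14 were higher (Emcn, Vwf, Plvap and Mmrn2) with a list median of 0.69, and none was lower at either age. Over all genes, 9.62% were higher and 11.9% lower at 6 months (median -0.03). At 7 days 5.55% of all genes were higher and 10.3% lower (median 0.01). Pecam1, the endothelial adhesion molecule CD31, had 40.2 FPKM after tenotomy and 19.0 FPKM after sham at 6 months, and 88.7 FPKM after tenotomy and 53.3 FPKM after sham at 7 days. Cdh5, VE-cadherin, had 26.2 FPKM after tenotomy and 11.7 FPKM after sham at 6 months, and 63.3 FPKM after tenotomy and 40.0 FPKM after sham at 7 days. The summed level of the 14 was 247 FPKM after tenotomy and 154 FPKM after sham at 6 months, and 500 FPKM after tenotomy and 291 FPKM after sham at 7 days, with none at 0. Of 6 lymphatic markers, 2 of 3 at the floor were higher at 6 months (Pdpn, also made by fibroblasts, and Ccl21a), and 1 of 5 was lower at 7 days (Prox1, at the floor through sham alone). Their summed level was 81.3 FPKM after tenotomy and 36.4 FPKM after sham at 6 months, and 121 FPKM after tenotomy and 76.4 FPKM after sham at 7 days. The part of endothelial cell number in the receptor values was not tested.

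Set against the endothelial sum of its own library, Kdr did not differ between operations beyond counting error. Kdr equalled 3.02% (2.44 to 3.69) of the sum after tenotomy and 3.29% (2.43 to 4.36) after sham at 6 months. At 7 days it equalled 4.60% (4.16 to 5.08) after tenotomy and 5.25% (4.57 to 5.99) after sham. The intervals, which hold the counting error of Kdr alone, overlapped between operations at each age and did not overlap between ages under the same operation. Flt1 equalled 1.70% (1.30 to 2.18) of the sum after tenotomy and 3.61% (2.76 to 4.64) after sham at 6 months, and 1.86% (1.60 to 2.15) after tenotomy and 1.76% (1.40 to 2.18) after sham at 7 days. For Flt1 the 6-month sham library was thus the one that stood apart, with an interval above the other 3. Flt4 lay between 1.46% and 2.17% of the sum in all 4 libraries. Nrp1 equalled 9.66% after tenotomy and 8.62% after sham at 6 months, and 7.07% (6.38 to 7.80) after tenotomy and 11.8% (10.6 to 13.2) after sham at 7 days.

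The Flt1 to Kdr ratio, decoy-capable over signalling receptor, was 0.564 (0.403 to 0.784) in the 6-month tenotomy library and 1.10 (0.740 to 1.64) in the 6-month sham library. It was 0.404 (0.337 to 0.482) in the 7-day tenotomy library and 0.335 (0.258 to 0.434) in the 7-day sham library. Flt1 and Kdr were close to equal in adult sham tendon, and Kdr exceeded Flt1 in the other 3 libraries.

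**Figure D3:**
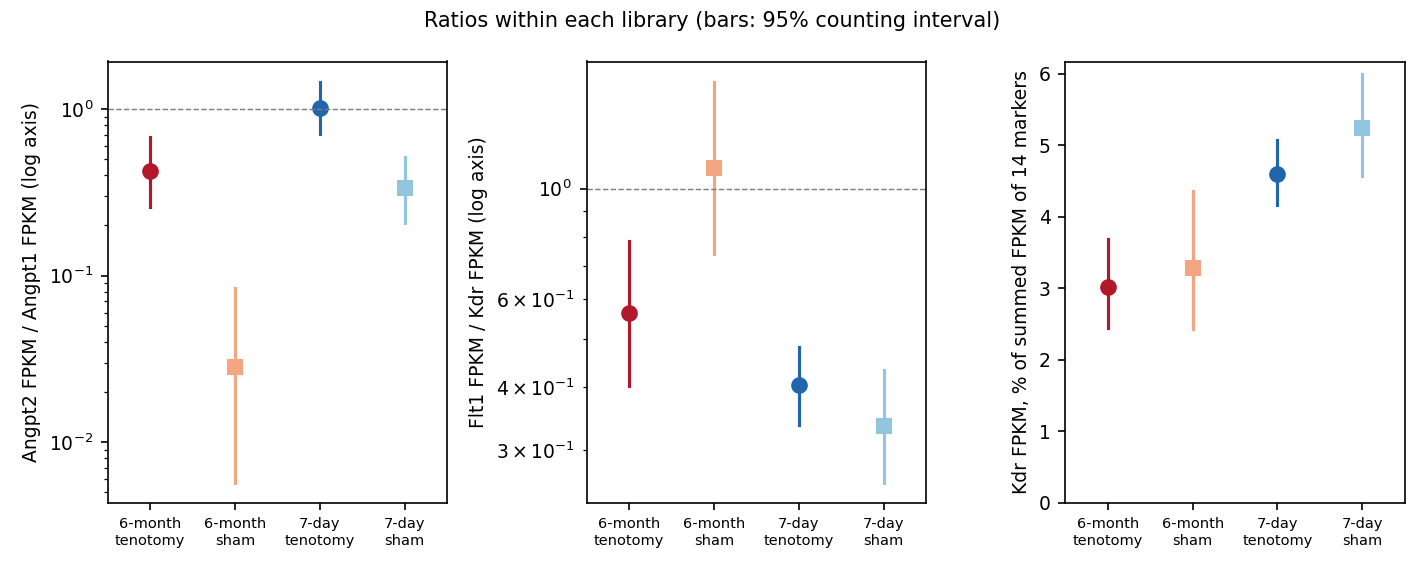
Ratios of FPKM within each library: Angpt2 to Angpt1 and Flt1 to Kdr on log axes (dashed line at 1), and Kdr as a percentage of the summed FPKM of 14 endothelial markers. Points are the 6-month tenotomy, 6-month sham, 7-day tenotomy and 7-day sham pools with 95% counting intervals, which in the third panel cover Kdr alone. Angpt2 to Angpt1 is lowest in the 6-month sham library at 0.0281, where Flt1 to Kdr is highest at 1.10.

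The order of the 10 genes by FPKM differed between libraries. Nrp1 was highest in the 6-month tenotomy, 7-day tenotomy and 7-day sham libraries, and Vegfb in the 6-month sham library. After tenotomy the lowest were Hgf at 6 months and Angpt1 at 7 days, and after sham they were Angpt2 at 6 months and Hgf at 7 days. Of 9 neighbours in the order, the counting intervals separated 1 pair in the 6-month tenotomy library (Nrp1 above Vegfa) and 1 pair in the 6-month sham library (Nrp1 above Flt1). They separated 2 pairs in the 7-day tenotomy library (Nrp1 above Kdr, and Kdr above Vegfa) and 2 pairs in the 7-day sham library (Nrp1 above Vegfa, and Kdr above Angpt1). The single intervals of the other neighbours overlapped, although the Vegfb to Vegfa ratio in the 6-month sham library, 1.42 (1.01 to 1.95), left out 1. In the adult sham library the ligands summed to 80.5 FPKM and the receptors to 27.3 FPKM, while in the neonatal tenotomy library the ligands summed to 41.6 FPKM and the receptors to 75.8 FPKM. The remaining sums were 40.8 FPKM of ligands and 40.4 FPKM of receptors after 6-month tenotomy, and 60.8 FPKM and 59.0 FPKM after 7-day sham.

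The tenotomy response was next compared between ages as the 6-month log2 ratio minus the 7-day log2 ratio, for the 10077 genes that reached 5 FPKM in 1 or more libraries. Of the 10 members, 0 were called higher, where 8.82% of genes were, and 1 was lower (Flt1, at -1.09), where 5.64% of genes were. The members' median was -0.09, against 0.03 over all genes. With other scalings the background was 11.2% higher and 4.14% lower without small RNAs, mitochondrial and muscle genes, 10.1% and 4.59% with a median of ratios, and 7.54% and 6.94% with a common sum. Under the scaling without small RNAs, mitochondrial and muscle genes, where the median of all genes was 0.17, the Flt1 difference of -0.97 no longer passed the call.

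Vegfa and Vegfb had nearly the same response at both ages, with differences of -0.02 and -0.09. Kdr differed by -0.09 and Vegfc by 0.09. The signs of these 4 small differences turned under 1 or more scalings, so no direction is given for them. Angpt2 differed by 0.73 and Nrp1 by 0.76, with the larger ratio at 6 months, while Hgf differed by -0.65, Angpt1 by -0.55 and Flt4 by -0.37. None of these passed 2-fold, and no difference between ages was tested.

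**Figure D4:**
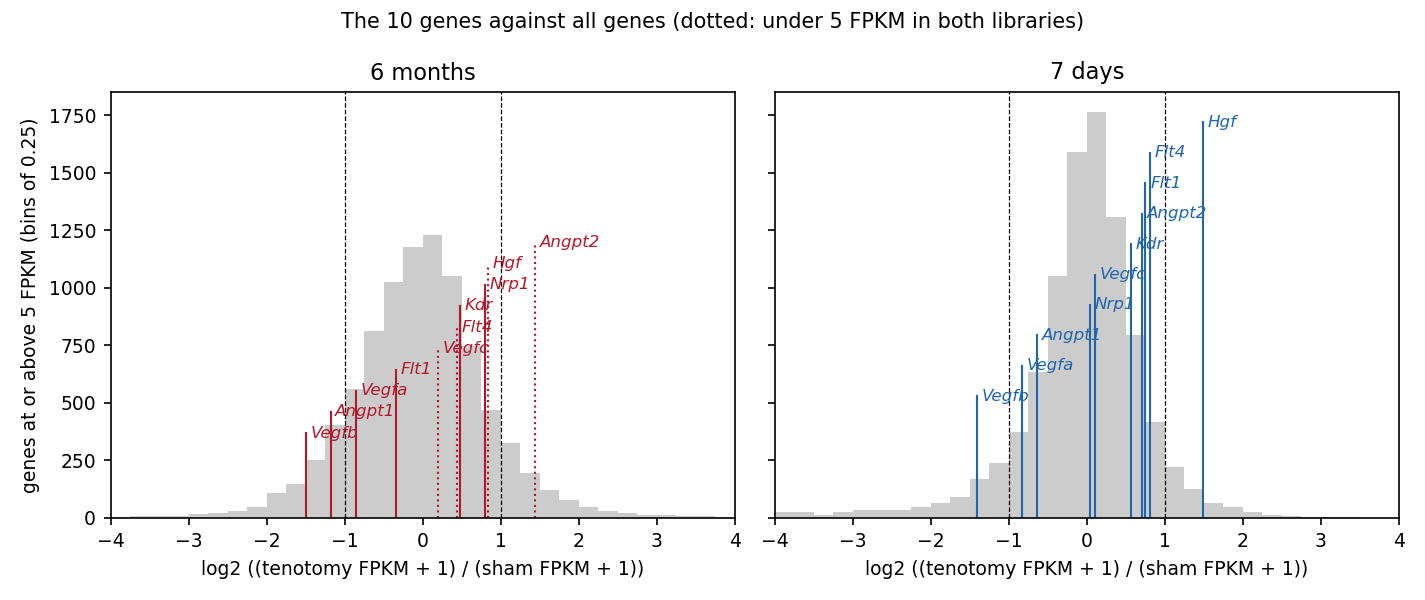
Histogram of log2((tenotomy FPKM + 1)/(sham FPKM + 1)) over all genes that reached 5 FPKM at that age, in bins of 0.25, at 6 months and 7 days. Vertical lines mark the 10 genes (dotted where under 5 FPKM in both libraries), their heights serve only to space the names, and dashed lines mark 2-fold. The axis ends at -4 and 4, beyond which some genes lie. Most of the 10 lie within 2-fold, with Vegfb to the left of the line at both ages and Hgf to the right at 7 days.

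Levels were then compared between ages within the same operation. These come from 2 tables that may have been scaled separately, and the median log2 ratio of all genes was -0.25 for either operation, so values are to be read against that shift. In sham tendon, 0 of 7 members at the floor were higher at 6 months, where 6.67% of 9323 genes were, and 2 were lower, where 13.1% of genes were. These were Kdr, with 5.08 FPKM at 6 months and 15.2 FPKM at 7 days (log2 ratio -1.42), and Nrp1, with 13.3 FPKM at 6 months and 34.4 FPKM at 7 days (log2 ratio -1.31). The members' median was 0.11. Angpt1 and Vegfb had log2 ratios of 0.90 and 0.75 and Vegfc of -0.94, without passing 2-fold, while Vegfa (0.17) and Flt1 (0.11) were close between ages.

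After tenotomy, 0 of 10 members were higher at 6 months, where 6.61% of 9201 genes were, and 1 was lower, where 10.1% of genes were. It was Kdr, with 7.45 FPKM at 6 months and 23.0 FPKM at 7 days (log2 ratio -1.51). The members' median was -0.66. Flt1 had a log2 ratio of -0.98, Vegfc of -0.85, Hgf of -0.79, Angpt2 of -0.69, Flt4 of -0.64 and Nrp1 of -0.55, and Vegfb (0.66), Angpt1 (0.35) and Vegfa (0.15) stood above 0. With a median of ratios between the tables, the background for sham was 9.10% higher and 9.37% lower, and for tenotomy 9.51% and 5.45%. Without small RNAs, mitochondrial and muscle genes it was 9.23% and 9.11% for sham, and 10.7% and 4.17% for tenotomy. Under both scalings Kdr and Nrp1 stayed lower in sham tendon and Kdr after tenotomy, and Angpt1 became higher in sham tendon.

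Other genes of the same pathways gave the setting. The counts and medians of the lists below are to be read against those over all genes. At 6 months 9.62% of all genes were higher and 11.9% lower, with a median of -0.03. At 7 days 5.55% were higher and 10.3% lower, with a median of 0.01. In these lists too, a gene at the floor in the tenotomy library alone had to lie higher there, which held for Plaur and Sphk1 at 6 months and Slc2a1 at 7 days, and one at the floor in the sham library alone had to lie lower after tenotomy, which held for Egln3 and Car9 at 7 days. Of 8 other VEGF ligands, co-receptors and semaphorins, 4 reached the floor at 6 months and none passed 2-fold (median log2 ratio 0.82). Over the genes at the floor in both libraries, this median was 0.89. At 7 days 5 did, and 1 was higher and 1 lower (median 0.23). Nrp2, the co-receptor of VEGF-C, rose after neonatal tenotomy, with 39.5 FPKM after tenotomy and 12.8 FPKM after sham at 7 days, and had 23.2 FPKM after tenotomy and 11.5 FPKM after sham at 6 months. Sema3c, a guidance ligand of the neuropilins, fell at 7 days, with 68.1 FPKM after tenotomy and 147 FPKM after sham. Pgf, placental growth factor and a Flt1 ligand, stayed under the floor at 2.31 FPKM after tenotomy and 0.792 FPKM after sham at 6 months, and 2.55 FPKM after tenotomy and 1.39 FPKM after sham at 7 days.

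The next list held 7 other angiopoietin, Tie and related genes, among them angiopoietin-like genes, and 6 reached the floor at each age. At 6 months 1 was higher (median 0.60) and at 7 days none was (median 0.65). The gene called was Angptl4, an angiopoietin-like gene and inhibitor of lipoprotein lipase. It had 60.8 FPKM after tenotomy and 12.7 FPKM after sham at 6 months. Tek, the receptor of both angiopoietins, had 6.29 FPKM after tenotomy and 6.11 FPKM after sham at 6 months, and 16.0 FPKM after tenotomy and 12.7 FPKM after sham at 7 days. Tie1, its orphan partner, had 20.3 FPKM after tenotomy and 12.5 FPKM after sham at 6 months, and 29.4 FPKM after tenotomy and 19.3 FPKM after sham at 7 days. Neither receptor passed 2-fold, while the ratio of their ligands differed between tenotomy and sham beyond counting error at both ages.

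Of 11 genes of Hgf activation and Met signalling, 4 reached the floor at 6 months and 2 were higher (median 0.71). Without Plaur, which reached it through the tenotomy library alone, the 6-month median was 0.28. At 7 days 6 reached the floor and 1 was higher (median 0.19), and none was lower at either age. Plau, the urokinase that can activate Hgf, had 33.2 FPKM after tenotomy and 14.5 FPKM after sham at 6 months. Its receptor Plaur had 15.4 FPKM after tenotomy and 4.17 FPKM after sham at 6 months. The gene called at 7 days was Plat, tissue plasminogen activator, with 21.4 FPKM after tenotomy and 7.67 FPKM after sham. Met itself did not pass 2-fold, with 4.34 FPKM after tenotomy and 4.91 FPKM after sham at 6 months, and 7.05 FPKM after tenotomy and 9.63 FPKM after sham at 7 days.

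Of 13 Notch and tip cell genes, 7 reached the floor at 6 months, 3 were higher and none lower (median 0.90). At 7 days 9 reached it, 1 was higher and none lower (median 0.50). Over the genes at the floor in both libraries, the medians were 0.67 at 6 months and 0.39 at 7 days. Apln, the apelin peptide of sprouting tip cells, had 13.8 FPKM after tenotomy and 0.942 FPKM after sham at 6 months, and 17.1 FPKM after tenotomy and 11.8 FPKM after sham at 7 days. Cxcr4, a chemokine receptor of tip cells and of leukocytes, had 25.5 FPKM after tenotomy and 6.53 FPKM after sham at 6 months, and 14.5 FPKM after tenotomy and 4.60 FPKM after sham at 7 days. Both rose at 6 months and Cxcr4 also at 7 days, and the third gene called at 6 months was Notch1, with 9.22 FPKM after tenotomy and 4.01 FPKM after sham. Apln and Notch1 at 6 months and Cxcr4 at 7 days reached the floor through the tenotomy library alone, so a higher tenotomy value was built into their selection. Dll4, the Notch ligand of tip cells, had 3.04 FPKM after tenotomy and 2.05 FPKM after sham at 6 months, and 5.44 FPKM after tenotomy and 4.36 FPKM after sham at 7 days.

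Of 14 hypoxia genes, 11 reached the floor at 6 months, 1 was higher and 3 lower (median -0.49). At 7 days 13 reached it, 3 were higher and 3 lower (median -0.06). Over the genes at the floor in both libraries, the medians were -0.26 at 6 months and -0.06 at 7 days. Hif1a, the oxygen-regulated transcription factor that drives Vegfa, rose at both ages, with 59.6 FPKM after tenotomy and 21.6 FPKM after sham at 6 months, and 110 FPKM after tenotomy and 47.3 FPKM after sham at 7 days. Its paralog Epas1, abundant in endothelium, had 19.2 FPKM after tenotomy and 27.4 FPKM after sham at 6 months, and 35.4 FPKM after tenotomy and 33.2 FPKM after sham at 7 days. Pdk1, a HIF target that restrains pyruvate oxidation, fell with Vegfb at both ages, with 9.67 FPKM after tenotomy and 26.0 FPKM after sham at 6 months, and 10.1 FPKM after tenotomy and 23.9 FPKM after sham at 7 days. At 6 months the other lower genes were Egln1, a HIF prolyl hydroxylase, and Bnip3, a mitophagy receptor. At 7 days they were Egln3 and Car9, the carbonic anhydrase IX gene, with 2.42 FPKM after tenotomy and 23.2 FPKM after sham, while Slc2a1, the glucose transporter GLUT1 (15.4 FPKM after tenotomy and 3.61 FPKM after sham), and Ndrg1 were higher.

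Of 12 vessel inhibitors, 10 reached the floor at each age. At 6 months 1 was higher (Col18a1, the source of endostatin) and 2 lower (Timp3 and Dcn), with a median of 0.27, and at 7 days 3 were higher (Thbs1, Thbs2 and Col18a1) and none lower, with a median of 0.40. Col18a1 had 37.5 FPKM after tenotomy and 15.5 FPKM after sham at 6 months, and 94.4 FPKM after tenotomy and 32.0 FPKM after sham at 7 days. Timp3, a metalloproteinase inhibitor that also blocks Kdr, had 34.4 FPKM after tenotomy and 180 FPKM after sham at 6 months, and 64.9 FPKM after tenotomy and 71.5 FPKM after sham at 7 days. Tnmd, tenomodulin, an inhibitor made by tenocytes, did not pass 2-fold, with 47.0 FPKM after tenotomy and 36.9 FPKM after sham at 6 months, and 279 FPKM after tenotomy and 301 FPKM after sham at 7 days. Of 8 genes that respond to VEGF in endothelium, 6 reached the floor at 6 months with 1 higher (Sphk1, sphingosine kinase, with 16.4 FPKM after tenotomy and 4.82 FPKM after sham), and 7 at 7 days with none called. Their medians were 0.01 and 0.22, and -0.09 and 0.08 over the genes at the floor in both libraries.

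**Figure D5:**
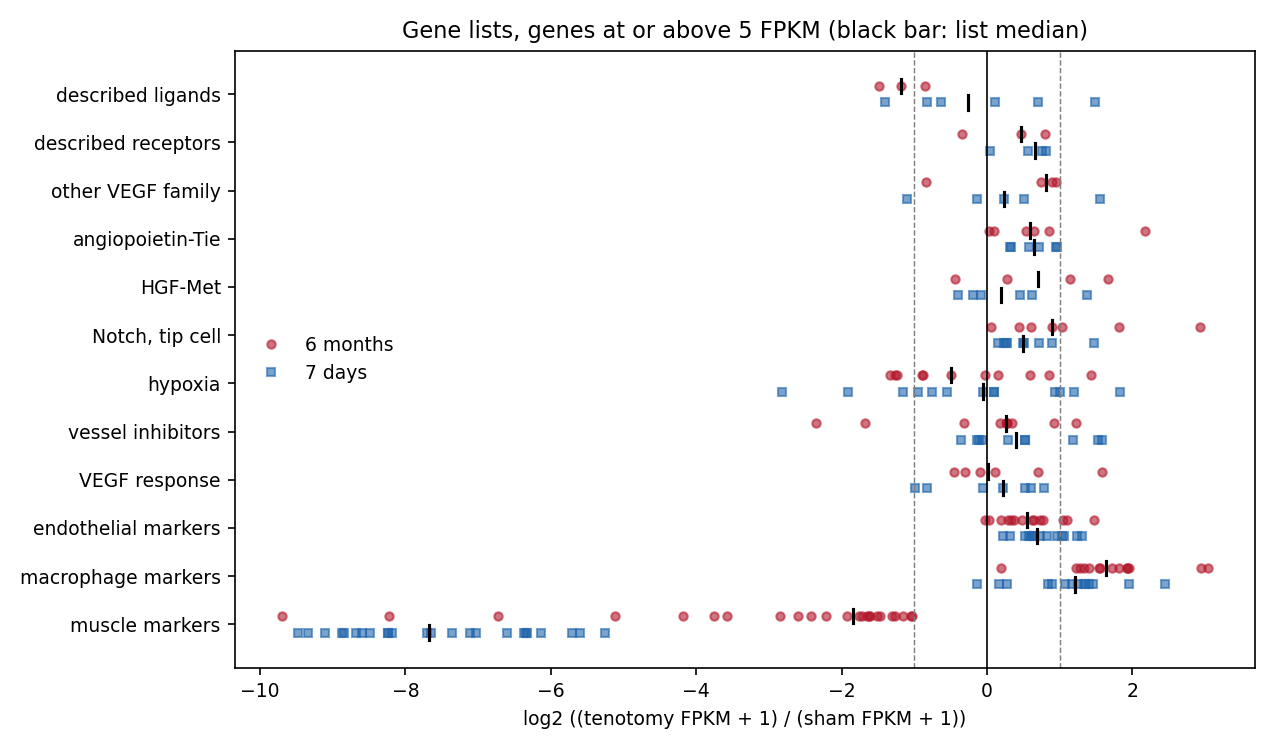
Log2((tenotomy FPKM + 1)/(sham FPKM + 1)) of each gene that reached 5 FPKM at that age, by gene list, at 6 months (circles, upper row of each list) and 7 days (squares, lower row). Black bars are list medians and dashed lines mark 2-fold. The median of the described ligands lies left of that of the described receptors at both ages, with Hgf right of all receptors at 7 days, the macrophage markers lie mostly to the right, and all muscle markers lie beyond the left 2-fold line.

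Of the other marker lists, 6 of 10 tenocyte genes were lower after tenotomy at 6 months, and 1 was higher and 2 lower at 7 days. Their summed level was 9427 FPKM after tenotomy and 12113 FPKM after sham at 6 months. At 7 days it was 21783 FPKM after tenotomy and 35174 FPKM after sham. Most of each sum came from Col1a1 and Col1a2, so the sums say little about the rest of the list. Col1a1 had 5766 FPKM after tenotomy and 5578 FPKM after sham at 6 months, and 13214.5 FPKM and 22438 FPKM at 7 days. None of the 10 was at 0, so transcripts of each were present in all 4 libraries. Neutrophil markers at the floor were higher, 4 of 4 at 6 months and 3 of 3 at 7 days, but 2 of them at each age (Csf3r and Retnlg, then S100a9 and Ngp) reached it through the tenotomy library alone. Adipocyte genes had 0 of 6 called at 6 months and 6 of 8 lower at 7 days. The shares over all genes were 9.62% higher and 11.9% lower at 6 months, and 5.55% and 10.3% at 7 days. Of 6 Schwann cell genes 0 reached the floor.

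The genes whose profile over the 4 libraries was nearest to each member, out of 7000 that reached 10 FPKM in 1 or more libraries, were ranked by the distance between centred log2(FPKM + 1) values. Nearest to Vegfa were Cdc37l1, Chchd2 and Romo1, at distances of 0.0694, 0.0733 and 0.0765. Nearest to Vegfb were Ndufb2, Ipo13 and Ugp2, at 0.108, 0.112 and 0.118. Nearest to Angpt1 was Egln1 (0.0887), one of the hypoxia genes above, followed by Irs2 and Nfe2l1. Nearest to Hgf was Nrp2 (0.0984), followed by Rell1 and Myof, and nearest to Angpt2 was Tpm4 (0.107), followed by Sqle and Adam19. Among the receptors, the nearest were A630033H20Rik for Kdr (0.0866), Mif for Flt1 (0.0627), Stx6 for Flt4 (0.0346) and Isg20l2 for Nrp1 (0.0426), and for Vegfc it was Vps28 (0.0473). With 4 values per profile, near profiles are a description of these libraries only.

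None of the 10 genes was called significant in the authors' deposited table at either age. At 6 months the authors' deposited table tested 6 of them, with a lowest p-value of 0.0583 (Vegfb) and a lowest q-value of 0.933, and it called 0 of 8897 tested genes, 463 of them with a p-value under 0.05. At 7 days the authors' deposited table tested all 10, with a lowest p-value of 0.0674 (Hgf) and a lowest q-value of 0.998, and it called 90 of 10476 tested genes. Angpt2, Hgf, Flt4 and Vegfc were not tested at 6 months in the authors' deposited table.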

How the data were processed

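Pooled Achilles tendon RNA gave 4 libraries, 1 for each group. Per the labels' protocols, the RNA had integrity values below 8, a directional kit was used after ribosomal RNA depletion, paired reads came from a MiSeq, and differential genes were called by an exact test after normalization. TopHat, Cufflinks and mm10 are named, with no versions or roles, per the submitters' processing notes. Not given in the sources used here are the annotation, settings, use of strand and any scaling between libraries. The authors deposited 1 table per age with 23351 lines, whose values were taken as FPKM from the layout and from Cufflinks being named. The deposited p-values and q-values, per the file headers, come with a test status; the labels do not tie them to the exact test.

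Log2 ratios used a pseudocount of 1 FPKM, on which differences of low genes come out too small, and a floor of 5 FPKM in either library of the comparison. A ratio is called at 2-fold. Low FPKM values of 1717 genes with a single transcript, 800 bp or longer, were whole fragments within 0.1 for 98.5%, 99.6%, 99.0% and 98.4% of low genes in the 6-month tenotomy, 6-month sham, 7-day tenotomy and 7-day sham libraries, with a mean fragment of 200 bp assumed. Intervals between 2 fragment counts are exact binomial, and those of 1 count exact Poisson. Scripts were tested on simulated data. Gene structure came from GENCODE and promoters from RefSeq GRCm38.p6.

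The members and lists were chosen with earlier results of these data known. Named are the 10 members, from each list the up to 4 genes furthest past 2-fold at each age, the 11 genes Tek, Tie1, Met, Pgf, Nrp2, Pecam1, Cdh5, Hif1a, Epas1, Dll4 and Tnmd whatever their values, and the 3 nearest profiles of each member. From some lists fewer genes are printed than this rule allows, and some further genes are named where a count or sum rests on them. Alternatives changed the pseudocount, the floor, the call, the scaling and the authors' call. The software was matplotlib 3.10.9 and SciPy 1.17.1, on pandas 2.3.3, with NumPy 2.4.6, under Python 3.11.15.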

Additional observations from a re-analysis of the deposited data

Results flagged for a closer look

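The tenotomy value of Flt1, VEGF receptor 1, lay below sham at 6 months and above sham at 7 days. Flt1 had 4.20 FPKM after tenotomy and 5.58 FPKM after sham at 6 months, and 9.29 FPKM after tenotomy and 5.11 FPKM after sham at 7 days. The 6-month log2 ratio minus the 7-day log2 ratio was -1.09. The 6-month tenotomy to sham ratio, 0.753 (0.519 to 1.09), was within counting error of 1 and Flt1 reached 5 FPKM there through the sham library alone, so a fall at 6 months is not shown, while the 7-day ratio was 1.82 (1.39 to 2.38). Each group is 1 pool, so the difference was not tested. It lay between -1.25 and -0.70 over the alternatives run.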

How the results depend on the processing

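Only the 3 other scalings could turn the direction of a tenotomy to sham ratio, and under all 3 the 10 genes kept theirs at both ages, except Nrp1 at 7 days, which lay at 0.04 and reached -0.00. Counts of members called were less steady, and the share of all genes called moved with them. With a pseudocount of 5 FPKM, 1 member (Vegfb) was lower at 6 months (6.88% of all genes), 0 were higher at 7 days (2.71%) and 0 differed lower between ages (2.32%, with Flt1 at -0.70), and with 0.1 FPKM 1 (Angpt2) differed higher between ages (11.1%). A floor of 1 FPKM or no floor each gave 1 higher at 6 months (Angpt2), where 10.1% and 5.71% of all genes were. A floor of 10 FPKM was reached by 4 members at 7 days and by 5 in 1 or more libraries. It gave 0 higher at 7 days (6.05%) and 0 lower between ages (5.15%). Hgf, at most 5.48 FPKM, and Flt1, at most 9.29 FPKM, lay under this floor, with their log2 ratios unchanged. Without small RNAs, mitochondrial and muscle genes, 0 differed lower between ages (4.14%, with Flt1 at -0.97). A 1.5-fold call gave 1 higher (Nrp1, 19.9%) and 3 lower (Vegfa, Vegfb and Angpt1, 23.9%) at 6 months. At 7 days it gave 4 higher (Angpt2, Hgf, Flt1 and Flt4, 14.8%) and 3 lower (Vegfa, Vegfb and Angpt1, 18.2%), and between ages 2 higher (Angpt2 and Nrp1, 18.6%) and 2 lower (Hgf and Flt1, 14.9%). By the call in the authors' deposited table, 0 were lower at 6 months, 0 higher at 7 days and 0 lower at 7 days. Scaling between the tables, chosen after seeing the data, gave 1 member higher in 6-month than in 7-day sham tendon (Angpt1) by a median of ratios (9.10%) and 1 without small RNAs, mitochondrial and muscle genes (9.23%). The floor and the fold of the call set which genes are counted and leave their log2 ratios as they were. The cause of the other changes was not tested. Depth limits Angpt2 and Hgf most, with 3 and 4 fragments in the 6-month sham library. No paired analysis was possible because each group is 1 pool, and for the same reason no replicate could be left out.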
